A study of Danio rerio with 2 samples.

Results

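Among the open chromatin regions listed for the zebrafish optic cup, a small set of broad peaks was only weakly accessible in the retinal pigment epithelium (RPE). They were selected as listed peaks on chromosomes 1 to 25 that were wider than 420 bp and held under 2.5 CPM, the count per 1000000 counts over all listed peaks, in each of the RPE libraries. A total of 1109 peaks met the rule, out of 45438 peaks wider than 420 bp on these chromosomes (2.44%) and 238369 listed peaks in all (0.465%). Counts chose these peaks, so their low CPM is a description and not a result. ATAC-seq was used, an assay where a transposase inserts adapters into DNA that nucleosomes leave free. Both belonged to 1 group of 2 replicates, RPE replicate 1 and RPE replicate 2, made from cells of tg(Enh-1_bHLHe40:GFP) embryos at 23 hours post fertilization (hpf), kept in E3 medium, with no compound or mutation named in the labels. GFP-positive cells were collected by flow cytometry from dissociated whole embryos, so any other cell in which the enhancer drives the reporter would enter the sort. The study says that activity in periocular neural crest and the ciliary margin is known only once the optic cup has folded. It expects minor contamination at most at 23 hpf. The study gives the purity of its sorts only as a lower bound short of complete, so cells outside the gate could also be present. Each library came from many pooled embryos, and the study describes the replicates as biological. The study describes the list of regions as coming from the neural retina (NR) and the RPE together. NR libraries were not analysed here, and with a single group no test between conditions was possible.

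The RPE is the pigmented, flat outer layer of the optic cup, and the NR is the inner layer that gives rise to photoreceptors and neurons. Both arise from the same eye field progenitors, in which many regulatory elements are open before the domains part. Enhancers and promoters appear in ATAC-seq as peaks. Broad peaks commonly mark promoters or clustered binding sites, where nucleosomes are displaced over a longer stretch, whereas an element used in only one cell type or in few cells gives little signal in the others. A peak called on a joint list can therefore be broad and still hold few counts in one of the tissues.

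Library totals were 23996755 counts in replicate 1 and 19653966 in replicate 2, so that 2.5 CPM lay between 59 and 60 counts in replicate 1 and between 49 and 50 in replicate 2. In replicate 1 the weakly open wide peaks had 7 counts at the lowest, 42 at the median and 59 at the highest. In replicate 2 they had 8, 39 and 49. At least 10 counts in both libraries were found in 1105 of the 1109. Expressed as CPM, the range was 0.292 to 2.46 with a median of 1.75 in replicate 1, and 0.407 to 2.49 with a median of 1.98 in replicate 2. These levels were not low for the list as a whole. The median of all 233815 peaks on the numbered chromosomes was 1.79 CPM in replicate 1 and 1.98 CPM in replicate 2, and 504 of the 1109 (45.4%) were above the median of the list by mean CPM. They were low for their width, as the rule required. Per kb of peak, they had a median of 3.87 CPM, against 7.18 for all peaks and 17.2 for the wide peaks at or above 2.5 CPM in both libraries. The limits on width and CPM capped this value in advance, and the highest among them was 5.83 CPM per kb. The contrast is therefore a description as well. They covered 529 kb altogether. Their share of all counts was 0.188% for replicate 1 (Clopper-Pearson 95% interval 0.186 to 0.189%), and for replicate 2 it was 0.212% (0.210 to 0.214%). These intervals cover counting error only. Since the rule capped the same counts, no difference between the libraries is read from them.

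A further 42441 wide peaks (93.4%) were at or above the threshold in both libraries and served as the comparison. The remaining 1888 had 1 library on each side, 1370 of them under the threshold in replicate 1 only and 518 in replicate 2 only. There was no gap in the counts at the threshold. Of the 1109 peaks, 681 (61.4%) had at least 2 CPM in one or both libraries, 17 were under 1 CPM in both, and 300 (27.1%) had an exact 95% Poisson upper limit under 2.5 CPM in both libraries. Just inside the threshold, the peak at chr1:9297384-9297804 had 58 counts in replicate 1 and 49 in replicate 2, and just outside it the peak at chr1:28917800-28918229 had 60 and 60. Their Poisson intervals overlapped, from 1.84 to 3.12 CPM and from 1.91 to 3.22 CPM in replicate 1.

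**Figure D1:**
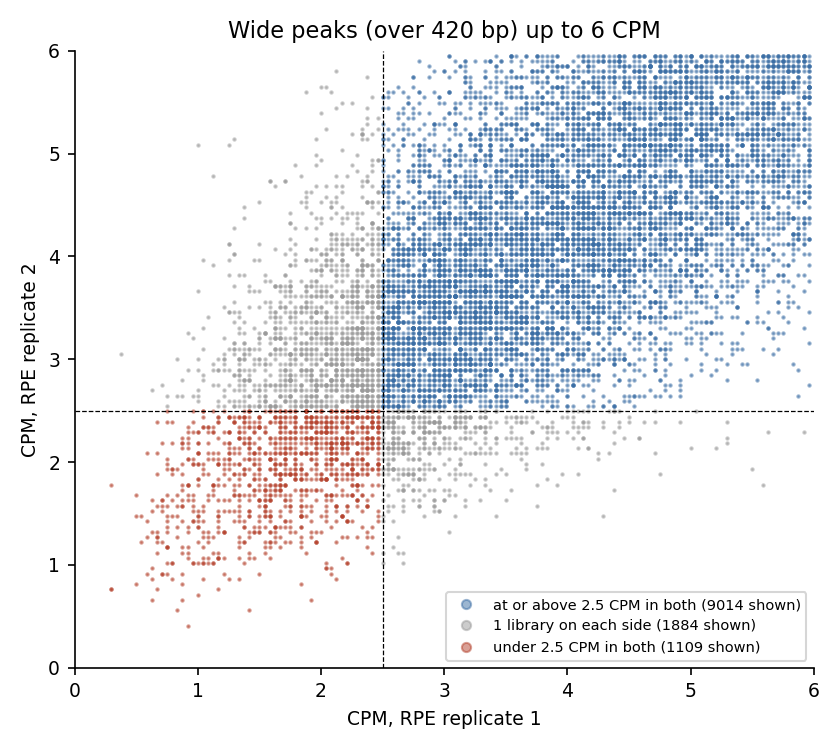
CPM in RPE replicate 1 (x axis) and RPE replicate 2 (y axis) for the 12007 wide peaks under 6 CPM in both libraries, with the 2.5 CPM threshold as dashed lines. Red points are the 1109 peaks under it in both libraries, grey points have 1 library on each side, and blue points are at or above it in both. The cloud is continuous across the lines.

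To find out how far the low level held in a replicate that had not chosen the peaks, the rule was applied to 1 library and the counts were read in the other. The 2479 wide peaks under 2.5 CPM in replicate 1 had a median of 2.65 CPM in replicate 2 (quartiles 2.04 and 3.26), against 7.33 CPM for peaks of like width at or above the threshold. Of these, 44.7% were also under 2.5 CPM in replicate 2, compared with 2.09% of the like-width peaks. In the reverse direction, the 1627 wide peaks under the threshold in replicate 2 had a median of 2.08 CPM in replicate 1 (quartiles 1.54 and 2.67), against 7.21 CPM, and 68.2% were under it again, compared with 5.11%. At 5 CPM or more in the other library were 34 of the 2479 and 10 of the 1627. Thus weak accessibility of a wide peak was shared between the replicates, while the exact membership near the threshold was shared only in part. Both directions share the width rule and the peak list. The peaks under the threshold in the other library are the same 1109 in both directions. The shares of 44.7% and 68.2% are therefore 1 overlap over different totals and not separate checks.

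Weakly open peaks were concentrated at the lower end of the width range. The rule favoured this, because its threshold was not scaled to width and CPM was higher in wider peaks. The shares are therefore a description. Among peaks over 420 and up to 450 bp, 465 of 7301 (6.37%) were weakly open, among those of 451 to 500 bp 371 of 9562 (3.88%), and among those of 501 to 600 bp 225 of 13210 (1.70%). The share was 0.419% (46 of 10982) at 601 to 800 bp and 0.0634% (2 of 3157) at 801 to 1000 bp. None of the 1226 peaks over 1000 bp was among them. The median width was 458 bp, against 546 bp for the comparison peaks. Where the text below names peaks of like width, the comparison peaks were therefore weighted to the same distribution. In the comparison peaks the median level went from 6.64 CPM in the first of these classes to 18.8 CPM at 801 to 1000 bp, while that of the weakly open peaks, held under the threshold by the rule, was between 1.81 and 2.09 CPM.

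The widest weakly open peak, at chr16:5744147-5745089, spanned 943 bp and had 40 counts in replicate 1 (1.67 CPM, exact 95% interval 1.19 to 2.27) and 37 in replicate 2 (1.88 CPM, 1.33 to 2.59). The next, 809 bp at chr21:27833216-27834024, had 59 and 46 counts. On chromosome 4 there were 2 of the 5 widest, 798 bp at chr4:24670082-24670879 with 53 and 48 counts and 770 bp at chr4:76064766-76065535 with 51 and 43. All 4 were close between the libraries, within 0.18 on the log2 scale. The fifth stood apart by its lower counts and its neighbours. The 752 bp peak at chr1:51650141-51650892 had 22 counts in replicate 1 and 8 in replicate 2, or 0.917 and 0.407 CPM. The exact 95% intervals of the libraries overlapped, at 0.575 to 1.39 and 0.176 to 0.802 CPM. Yet its listed neighbours on both sides were broad and strongly open. The peak 9354 bp before it was 601 bp wide with 18.6 and 14.1 CPM, and the one 6763 bp after it was 1159 bp wide with 8.29 and 9.51 CPM.

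The lowest summed counts were found in a 450 bp peak at chr23:13214914-13215363 and a 467 bp peak at chr6:47144411-47144877. Each had 7 counts in replicate 1 (0.292 CPM, exact 95% interval 0.117 to 0.601) and 15 in replicate 2 (0.763 CPM, 0.427 to 1.26). The first had a listed peak of 207 bp 200 bp before it and one of 102 bp 97 bp after it, all under 1 CPM in both libraries. The second lay 9 bp from a 273 bp peak that had 1.42 CPM in replicate 2, so the weakest wide peaks included parts of runs of nearly contiguous listed intervals. The next, 562 bp at chr1:3627507-3628068, had 15 and 13 counts, and its neighbours on the 2 sides had 3.15 and 3.66 CPM in replicate 2.

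Next, the surroundings of the weakly open peaks were compared with those of like-width peaks. Peaks next to them had lower CPM, taken as the mean over the adjacent listed peaks, one on each side. The median was 1.41 around weakly open peaks and 3.30 around the comparison peaks. The difference had the same sign on 25 of 25 chromosomes, with a mean of -1.86 CPM ± 0.348 (SD over chromosomes, n = 25). Since wide neighbours can themselves belong to either class, the comparison was repeated with neighbours of at most 420 bp, whose class the rule cannot set. Their medians were 1.03 CPM around 1072 weakly open peaks and 2.00 CPM around the comparison peaks, again lower on 25 of 25 chromosomes (mean difference -0.963 CPM ± 0.213, SD, n = 25). The rule was then applied in replicate 1 and the neighbours were measured in replicate 2. For neighbours of any width the medians were 1.65 and 3.28 CPM, and in the reverse case 1.42 and 3.13 CPM. For neighbours of at most 420 bp they were 1.25 and 2.04 CPM, and in the reverse case 1.0001 and 1.88 CPM. No p is given for these values, because peaks are no replicates of a condition, and the chromosomes only show the spread. CPM was not scaled to the width of the adjacent peaks. Their median width was 237 bp beside weakly open peaks and 280 bp beside the comparison peaks, without weighting. The part of this width in the difference was not tested. Local sequence, mappability and peak calling were not analysed here, and their part in the difference was not tested.

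**Figure D2:**
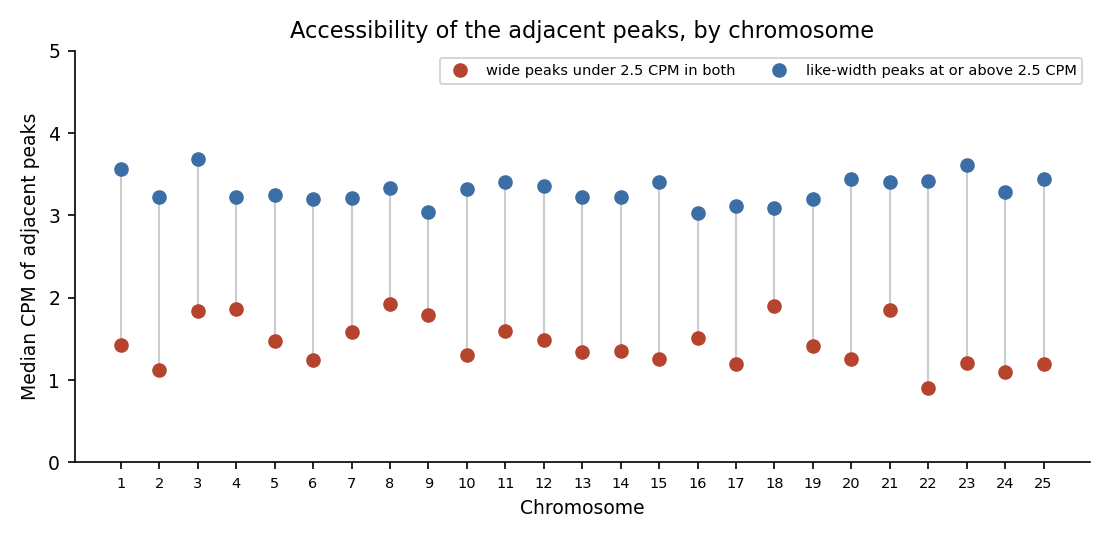
Median CPM of the listed peaks next to a wide peak (y axis, mean of both libraries) on each of the 25 chromosomes (x axis), for wide peaks under 2.5 CPM in both libraries (red) and for peaks of like width at or above it (blue). On every chromosome the red point lies below the blue one.

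Listed peaks were also sparser around them. The median gap to the nearest listed peak was 2324 bp, against 1443 bp for like-width peaks, and it was longer on 24 of 25 chromosomes. Within 10 kb there were on average 3.24 other listed peaks, against 4.56, with fewer on 25 of 25 chromosomes (mean difference -1.32 ± 0.295, SD, n = 25). No other listed peak lay within 10 kb of 68 weakly open peaks (6.13%), compared with 1.82% of like-width peaks. A listed peak within 200 bp was found for 14.2%, compared with 18.0%. The gap was longer in each width class: up to 450 bp the medians were 2113 and 1345 bp, at 451 to 500 bp 2277 and 1486 bp, and at 501 to 1000 bp 2699 and 1646 bp. A wide peak at or above 2.5 CPM in both libraries was the immediate neighbour of 260 weakly open peaks (23.4%), compared with 37.7% of like-width peaks, and the median distance to the nearest such peak was 14.7 kb against 7.47 kb.

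The surroundings also varied with the level of the peak itself. Peaks over 420 and up to 600 bp were ordered by their own mean CPM, and the adjacent peaks had a median of 1.29 CPM around the 227 peaks under 1.5 CPM, 1.48 CPM around the 506 peaks of 1.5 to 2 CPM, 1.497 CPM around the 976 peaks of 2 to 2.5 CPM, 1.83 CPM around the 2977 peaks of 2.5 to 3.5 CPM and 2.21 CPM around the 4568 peaks of 3.5 to 5 CPM. Around the 2600 peaks of 20 CPM or more it was 7.01 CPM. The adjacent CPM was thus nearly level over the classes just under the threshold and higher in each class above it. These classes span unequal ranges of CPM and were not weighted to peak width. Their median peak width was 450 bp under 1.5 CPM and 518.5 bp at 20 CPM or more. The number of listed peaks within 10 kb was 3.02 under 1.5 CPM, 3.25 at 1.5 to 2 CPM, 3.35 at 2 to 2.5 CPM, 3.83 at 3.5 to 5 CPM and 5.67 at 20 CPM or more. The gap to the nearest peak did not follow this order at the low end, with 2107 bp under 1.5 CPM, 2428 bp at 1.5 to 2 CPM, 2380 bp at 2 to 2.5 CPM, 2200 bp at 2.5 to 3.5 CPM and 623 bp at 20 CPM or more.

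**Figure D3:**
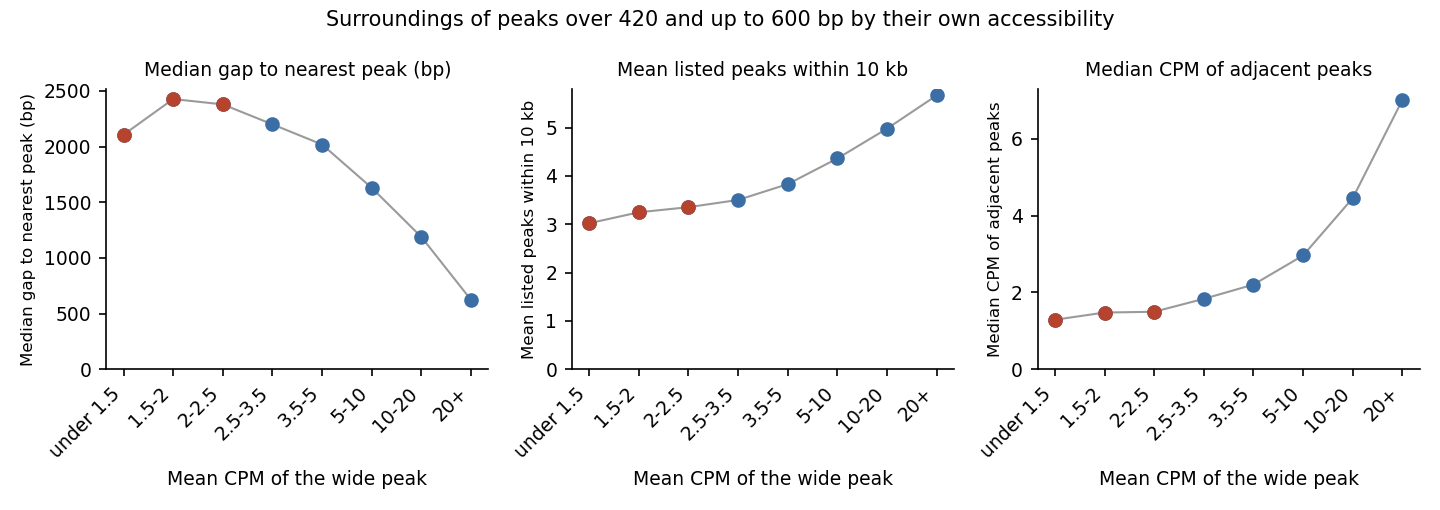
Peaks over 420 and up to 600 bp in 8 classes of their own mean CPM (x axis), with the median gap to the nearest listed peak in bp, the mean number of listed peaks within 10 kb, and the median CPM of the adjacent peaks (y axes, each from 0). Red points are classes under 2.5 CPM on average, which hold some peaks with 1 library on each side of the threshold. The classes are not weighted to peak width. The adjacent CPM is 1.48 and 1.497 in the last 2 red classes, 1.83 in the first blue class and 7.01 in the last.

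Single peaks departed from this average. The most crowded weakly open peak, at chr10:883131-883584, had 55 and 37 counts and 12 other listed peaks within 10 kb, and it lay between peaks of 3.04 and 3.38 CPM in replicate 1. The peak at chr4:39428-39905, near the start of the listed part of chromosome 4, had 31 and 33 counts and 11 neighbours. The peak at chr19:42230219-42230664 had 54 and 38 counts and 10 neighbours. At the other extreme, the peak at chr14:50319050-50319510 with 53 and 43 counts was 38.4 kb from the nearest listed peak, the one at chr5:59320661-59321172 with 17 and 31 counts was 35.7 kb away, and the one at chr1:26833145-26833647 with 59 and 46 counts was 24.3 kb away. The counts of crowded and of isolated peaks overlapped.

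To examine whether weakly open wide peaks lay near each other, wide peaks were followed in their order along each chromosome. The next wide peak was weakly open in 63 of 1107 cases (5.69%, exact 95% interval 4.40 to 7.22%) after a weakly open peak, and in 970 of 42418 cases (2.29%, 2.15 to 2.43%) after a comparison peak. With the first peak of each pair weighted to like width, the second value was 2.38%. The width of the next wide peak was not matched. The share was higher after a weakly open peak on 22 of 25 chromosomes, with a mean difference of 3.32 percentage points ± 3.33 (SD, n = 25). Even so, most occurred singly: 988 of the 1109 had no weakly open wide peak directly before or after them in this order, 53 runs held 2 and 5 runs held 3. Within 10 kb of another weakly open peak were 32 (2.89%), compared with 1.16% of like-width peaks, and the median distance to the nearest was 352 kb against 411 kb.

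Of the 5 runs of 3, the 3 with the shortest span are given. On chromosome 16 the run spanned 26.7 kb and included the widest member, at chr16:5744147-5745089, preceded by a 507 bp peak at chr16:5721022-5721528 with 47 and 41 counts and followed by a 573 bp peak at chr16:5747156-5747728 with 34 and 25. On chromosome 10 the run of 34.8 kb began with a 481 bp peak at chr10:39794492-39794972 with 56 and 38 counts, continued with 422 bp at chr10:39798691-39799112 with 22 and 23, and ended at chr10:39828771-39829244 with 35 and 46. On chromosome 2 the run of 35.1 kb held peaks with 40 and 45 counts at chr2:46497996-46498437, 23 and 31 at chr2:46510582-46511003, and 51 and 17 at chr2:46532364-46533047. The libraries were close on chromosome 16, whereas the last peak on chromosome 2 was higher in replicate 1.

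On the scale of megabases the weakly open peaks were spread widely. Of 1328 complete megabases, 630 (47.4%) held none, 437 held 1, 172 held 2, and 89 held 3 or more. The variance of the number per megabase was 1.28 times its mean. The most, 7 of 48 wide peaks, were found at 37 to 38 Mb of chromosome 12. On chromosome 14, 6 of 36 wide peaks (16.7%) were weakly open at 27 to 28 Mb and 6 of 68 at 39 to 40 Mb. Among megabases with at least 20 wide peaks, the highest share, 19.0%, rested on 4 of 21 wide peaks at 20 to 21 Mb of chromosome 2. Over these 1072 megabases, the share of weakly open peaks had a Spearman correlation of -0.25 with the median CPM of the peaks of at most 420 bp and of -0.066 with the number of listed peaks, as a description. In the 271 of them with the fewest listed peaks (95 to 163) the share was 2.77%, and in the 267 with the most (222 to 359) it was 2.05%.

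Chromosomes differed little. Weakly open peaks made up 2.44% ± 0.418 (SD, n = 25) of the wide peaks on a chromosome, and the exact 95% interval of 23 chromosomes held the overall share of 2.44%. The exceptions were chromosome 3, the lowest, with 35 of 2061 wide peaks (1.70%, 1.19 to 2.35%), and chromosome 14, the highest, with 62 of 1808 (3.43%, 2.64 to 4.37%). Chromosome 14 also had the highest density, 1.19 per Mb, and chromosome 4 the lowest, 0.378 per Mb. In the sparse stretch of chromosome 4 from 30 to 70 Mb, none of the 29 wide peaks was weakly open (exact 95% interval 0 to 11.9%).

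**Figure D4:**
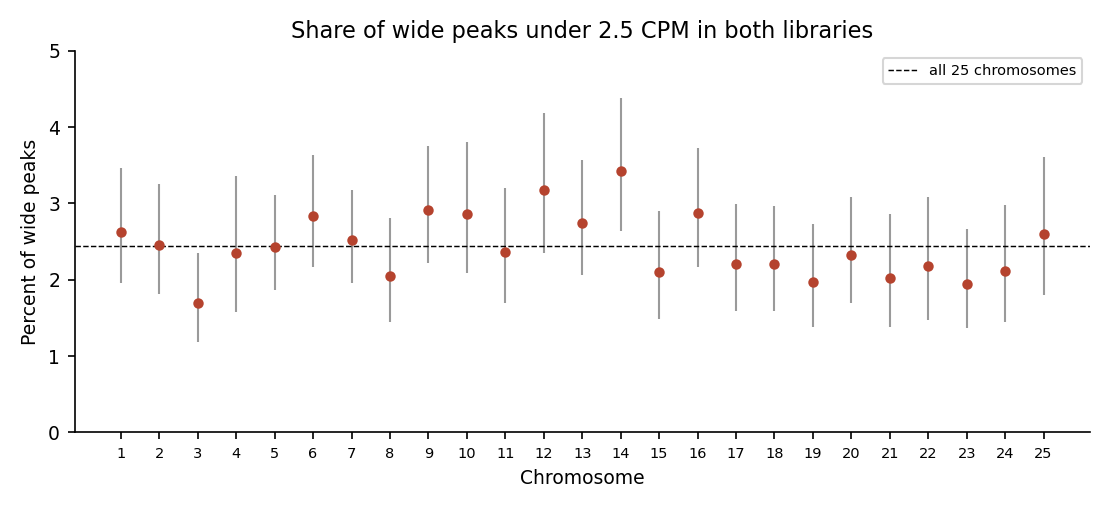
Percent of wide peaks (y axis) that were under 2.5 CPM in both libraries on each of the 25 chromosomes (x axis). Bars are exact 95% binomial intervals, which cover counting error only, and the dashed line is the overall share of 2.44%; the intervals of chromosomes 3 and 14 miss it.

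Near the ends of chromosomes, taken as the first and last listed peaks, 265 weakly open peaks (23.9%) lay within 5 Mb, compared with 19.9% of like-width peaks. The difference was positive on 19 of 25 chromosomes, with a mean of 4.59 percentage points ± 6.88 (SD, n = 25). Within 2 Mb the shares were 9.38% and 9.35%. With a threshold of 2 CPM, the difference at 5 Mb was 0.18 percentage points.

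The sorted cells were then checked at genes of known role, and the weakly open peaks were looked for there. Positions of 37 genes came from the study's gene table. The study describes it as holding genes that differ in expression over development and between domains. The choice of genes is therefore not independent of these cells. Within 10 kb of the 7 RPE regulators (mitfa, tfec, otx2, bhlhe40, tfap2a, tfap2c and tead3b) lay 41 wide peaks. All were at or above 2.5 CPM in both libraries, as were 93.4% of all wide peaks. At mitfa, a regulator of pigment cells, there were 6 wide peaks with a median of 11.6 CPM. The highest listed peak there reached 20.04 CPM in replicate 1 and 16.2 in replicate 2. At otx2, a homeobox gene needed for RPE identity, there were 3 with a median of 14.2 CPM, and at bhlhe40, whose enhancer drives the reporter, 4 with a median of 30.2 CPM. Because the sort selected cells by activity of this enhancer, openness at bhlhe40 is no independent check of them. The 9 pigment genes, among them tyr and dct, which encode enzymes of melanin synthesis, and pmela, which encodes a protein of the melanosome matrix, had 26 wide peaks. The 9 keratin and desmosome genes, such as krt8 and dspa, had 25, of which 14 were at pleca, a plakin gene, and none at evpla. None of these was weakly open, where the share among all wide peaks was 2.44%. The highest listed peak at a gene of this list ranged from 1.63 CPM (evpla) to 47.1 CPM (pleca) in replicate 1 and from 2.09 to 37.7 CPM in replicate 2, so evpla was below every gene of the other lists in both libraries.

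Listed peaks also lay at genes of other cells that the sort could hold, at levels that varied between genes. At 12 such genes there were 31 wide peaks, none of them weakly open, and the highest listed peak at a gene ranged from 2.38 to 37.5 CPM in replicate 1 and from 2.19 to 36.8 in replicate 2. The lowest was at crestin, a neural crest marker with a single listed peak, and the highest at acta1b, which encodes a muscle actin. At sox10, a neural crest regulator, the highest peak had 29.7 and 26.9 CPM. It was low at foxa2 (4.25 and 4.68 CPM), cldni (5.17 and 5.90 CPM) and mylpfa, another muscle gene (5.46 and 6.72 CPM). Apart from these and crestin, the lowest in this list was neurog1, with 11.8 and 10.3 CPM. For the RPE regulators, the corresponding range was 19.0 to 41.4 CPM in replicate 1 and 16.2 to 37.4 in replicate 2, so the ranges of both lists overlapped. The medians over genes of this highest peak differed. In replicates 1 and 2 they were 28.5 and 29.4 CPM for the RPE regulators, and 13.2 and 13.3 CPM for the genes of other cells. For the pigment genes they were 25.8 and 23.2 CPM, and for the keratin and desmosome genes 12.9 and 13.2 CPM. Other cells in the sort and openness shared between tissues cannot be told apart in these data, and their part was not tested. Over all 37 genes, 0 of 123 wide peaks were weakly open, against 2.44% of all wide peaks. A count of 0 allows a share of up to 2.44% when 3 peaks are taken as its limit. By the exact 95% binomial interval it allows up to 2.95%, which includes the share of all wide peaks, so no depletion is read from it. Extending the flanks to 50 kb gave 1 of 255 wide peaks (0.392%), and no test was made. This peak lay near pnp4a, an iridophore gene. It spanned 490 bp at chr11:24041490-24041979 and had 54 counts in replicate 1 and 43 in replicate 2, next to listed peaks with a mean of 15.6 CPM.

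Finally, the balance of the libraries at the weakly open peaks was described. Replicate 2 had the higher CPM in 730 of the 1109 (65.8%), compared with 56.9% of all listed peaks on the numbered chromosomes and 45.04% of the wide comparison peaks. On the log2 scale, replicate 1 over replicate 2, the median difference was -0.15 with an SD of 0.49 over the 1109 peaks. For the wide comparison peaks it was 0.04. The rule capped both counts, so the ratio was also taken in narrower peaks that were under 2.5 CPM in both libraries and weighted to the same summed counts. It was 0.07 in peaks of 100 to 130 bp, -0.02 at 131 to 200 bp, -0.08 at 201 to 300 bp and -0.12 at 301 to 420 bp. Since the rule used these counts, nothing is read from the ratio of the weakly open peaks. Its size depended on scaling, with a median of -0.058 under TMM and -0.056 under DESeq2 factors.

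By the exact binomial test with Benjamini-Hochberg adjustment over 238310 peaks, 68 weakly open peaks (6.13%) were higher in replicate 2 and 12 (1.08%) in replicate 1 at an adjusted p under 0.05. Among all listed peaks 8.21% were higher in replicate 2 and 5.09% in replicate 1, and this order turned with scaling. Of all peaks called, 38.3% were higher in replicate 1 when scaled by the totals, 56.4% under TMM and 56.9% under DESeq2 factors. The test compares the libraries and not conditions, and it allows for counting error only. Since the rule used these counts, nothing is read from the difference between the shares or from single peaks called. The most unequal peak with at least 50 counts towards replicate 2, at chr17:4674968-4675403, had 16 and 47 counts, -1.81 on the log2 scale. The peak at chr5:49171837-49172279 had 14 and 41 counts, also -1.81. Towards replicate 1, the peak at chr25:26837473-26837893 had 46 and 13 counts, with an adjusted p of 0.00738 by the exact test, and that at chr2:46532364-46533047 had 51 and 17, or 1.27 on the log2 scale.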

How the data were processed

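ATAC-seq libraries of sorted RPE cells were used. According to the methods of the study, paired reads were aligned to the danRer10 assembly with Bowtie2, duplicates were taken out with the rmdup tool of Samtools, read starts were moved to the site of transposase binding, and pairs with a short insert were kept. The submitters' processing notes name MACS2. The sources used here do not state if peak calling ran on single or pooled libraries. They also do not give what was counted, be it pairs, reads or insertions. The authors deposited a whole-number count for each peak, without scaling to depth, and both libraries hold the same peaks.

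CPM is each count divided by the sum of its library over all listed peaks, times 1000000. Peaks of like width were compared after weighting the peaks at or above the threshold to the widths of the weakly open ones in classes of 10 bp. Gaps were measured between peak edges and windows between midpoints. For each peak, the libraries were compared by a two-sided exact binomial test, with Benjamini-Hochberg adjustment over all peaks. Count intervals are exact 95% Poisson or Clopper-Pearson intervals and cover counting error only. TMM factors came from edgeR 4.0.16 and size factors from DESeq2 1.42.0 in R 4.3.3. The remaining steps used pandas 2.3.3 with numpy 2.4.6, scipy 1.17.1 and matplotlib 3.10.9 under Python 3.11.15. The binomial test was tried on simulated Poisson counts, which held no further variation between libraries. The neighbour measures were tried on simulated peaks whose wide peaks all had equal width. Weighting for width and the share near chromosome ends were therefore not tested in this way. Gene positions were taken from the study's own danRer10 gene table, which was available in part. Positions refer to danRer10 and count from 1.

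Regions named in the text were, by rule, the 5 widest and the 3 with the lowest summed count, 3 on each side of the CPM threshold, the 2 with the highest and the 2 with the lowest ratio between libraries among those with at least 50 counts, the 3 with the most listed peaks within 10 kb and the 3 farthest from any peak, the 3 longest runs, and 3 megabases by number and 3 by share. Not every region picked by the rule is printed. The members, the gene lists and the comparisons were chosen with earlier results of these data known. No sequence of danRer10 was used here, so sequence content was left out.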

Additional observations from a re-analysis of the deposited data

How the results depend on the processing

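The number of weakly open wide peaks, 1109, followed its thresholds: 428 at 2 CPM, 2153 at 3 CPM, 2324 for widths over 380 bp and 273 for widths over 500 bp. It was 1627 to 2479 when the rule used a single replicate, and 962 to 1188 under other scalings of the libraries. An alternative chosen after seeing the data, the 300 peaks whose upper limit was under the threshold in both libraries, also served for the values below.

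The direction was the same under all 70 alternatives run for the gap, the number of neighbours, the CPM of neighbours and the class of the next wide peak. A change is given here when it exceeds the SD between the single replicates. For the log2 ratio of the libraries, the SD over the medians of the chromosomes was used instead. Shares of the peaks that differed between libraries are given under each scaling. The difference in median gap, 881 bp, was 696 bp at 2 CPM, 1125 bp over 500 bp, 1747 bp when only neighbours with at least 10 counts in both libraries were counted, and 665 bp for the 300 peaks (741 to 953 bp in single replicates). That in neighbours within 10 kb, -1.32, was -1.72 with the same filter and -1.16 without weighting for width (-1.33 to -1.12 in single replicates). In a window of 50 kb, which holds more peaks, the means were 18.8 and 22.9. Their difference of -4.12 is not on the scale of the 10 kb values. That in adjacent CPM, -1.89, was -1.51 with the filter and, chosen after seeing the data, -1.63 with neighbours measured in replicate 2 alone (-1.85 to -1.55 in single replicates). For neighbours of at most 420 bp the difference, -0.965, was -0.759 with the filter and -0.797 with the width limit at 380 bp. With neighbours measured in replicate 2 alone, also chosen after seeing the data, it was -0.789 (-0.938 to -0.789 in single replicates). The excess of weakly open peaks next in order, 3.31 percentage points, was 2.02 at 2 CPM, 5.06 at 3 CPM, 4.67 over 380 bp and 1.23 over 500 bp (3.32 to 5.10 in single replicates). The excess within 5 Mb of an end, 3.96 percentage points, was 0.18 at 2 CPM, 0.55 for the 300 peaks and 0.033 within 2 Mb (1.26 to 3.61 in single replicates). The range of shares over chromosomes, 1.73 percentage points, was 1.69 to 3.21 in single replicates. The log2 ratio of the libraries, -0.15, was -0.058 under TMM and -0.056 under DESeq2 factors. Of the peaks that differed between libraries, 15% of the weakly open ones were higher in replicate 1, or 24.3% under TMM or DESeq2 factors; of all listed peaks it was 38.3%, 56.4% under TMM and 56.9% under DESeq2 factors. Near marker genes the count was 1 with flanks of 50 kb. The cause of these changes was not tested, apart from the wider or narrower selection itself.

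No paired analysis was possible because both libraries belong to 1 group. Sequence content was not run. Counts of at most 59 in each library limit the single peaks.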

Other observations

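The 1888 wide peaks with 1 library on each side of the threshold were described by the same measures. Their median width was 471 bp, their median gap to the nearest listed peak was 2370 bp, and they had on average 3.29 listed peaks within 10 kb. The adjacent peaks had a median of 1.64 CPM, compared with 1.41 CPM for the weakly open peaks. No test was made between these classes, which were set by the counts.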
